A study of Mus musculus with 5 samples.

Results

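The 37 genes described here are components and feedback genes of NF-κB signalling, measured in single cells of the mouse lung. They were taken from a fixed list of pathway members, and all 37 were found among the 31053 genes of the count tables. The list was chosen with earlier results of these data known. By role they are 3 receptors (Tlr4, Tnfrsf1a, Ltbr), 12 receptor-proximal adaptors, ligases and kinases (Myd88, Irak1, Irak4, Tradd, Ripk1, Traf1, Traf2, Traf3, Traf6, Birc2, Birc3, Cflar), 2 genes of the CARD-BCL10-MALT1 complex (Bcl10, Malt1), 4 genes of the TAK1 and TPL2 kinases (Map3k7, Tab1, Tab2, Map3k8), 3 IKK genes (Chuk, Ikbkb, Ikbkg), 5 NF-κB subunits (Nfkb1, Nfkb2, Rela, Relb, Rel), 5 genes of the IκB family (Nfkbia, Nfkbib, Nfkbie, Nfkbiz, Bcl3) and 3 genes of the A20 and ABIN feedback (Tnfaip3, Tnip1, Tnip2).

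Mice of 5 groups, all C57BL/6 with loxP-flanked Itgb1, which encodes integrin β1, were compared, each as 1 droplet library of viable lung cells sorted to be negative for CD45 and Ter119. β1 AT2-KO mice (labelled Itgb1 iKO) also carried SP-C rtTA and TetO-Cre, so that Cre is made in alveolar type 2 (AT2) cells, whereas littermate β1 fl/fl mice carried neither transgene. All mice were given doxycycline in their water beforehand, and at 3 months of age they received a single intratracheal dose of E. coli LPS, or PBS in 1 uninjured β1 AT2-KO group. The groups were LPS β1 fl/fl, LPS β1 AT2-KO and PBS β1 AT2-KO at day 7, and LPS β1 fl/fl and LPS β1 AT2-KO at day 21, the day 21 cell suspensions being enriched for EPCAM+ cells. Each library had 3 hashtags in use. The study pooled 3 or 4 mice per library, so a hashtag may stand for more than 1 animal, and "mouse" below means the cells of 1 hashtag.

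NF-κB dimers are held in the cytoplasm by IκB proteins. Receptors such as TLR4, which senses LPS, and TNFR1 recruit adaptors and ubiquitin ligases that activate TAK1 and the IKK complex, which marks IκB for degradation and frees the dimers to enter the nucleus. Several of the freed dimers' targets, among them IκBα (Nfkbia) and A20 (Tnfaip3), switch the pathway off again, and in the alveolar epithelium the pathway drives the cytokine response to inhaled bacterial products.

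Of the 37 members, 28 had promoter sequence in RefSeq (build GRCm38.p6, 300-base windows of 250 bases before and 50 from the start). The 10-letter κB consensus was searched on the strand of the gene only, so matches that read on the other strand are not counted. On that strand the consensus was found for 9 members (32.1%), beside 1817 of the 27025 genes with an entry (6.72%). A match of each of these 9 members is shown so that their letters can be compared, and Nfkb2 held 2 more. Capitals mark the κB match and lower case its flanks, each 5′ to 3′ on the strand of the gene, and the shares above are descriptions of letters in these windows only.
Rel (chr11:23771052-23771061, minus strand): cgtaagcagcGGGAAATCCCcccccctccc
Tnfaip3 (chr10:19015526-19015535, minus strand): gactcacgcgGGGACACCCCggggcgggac
Nfkb2 (chr19:46304698-46304707, plus strand): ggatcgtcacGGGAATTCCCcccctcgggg
Nfkbie (chr17:45555594-45555603, plus strand): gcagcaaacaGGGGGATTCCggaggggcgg
Bcl3 (chr7:19822744-19822753, minus strand): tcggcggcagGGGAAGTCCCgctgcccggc
Tnip1 (chr11:54962989-54962998, minus strand, overlapping a further match shifted by 1 base): ctccatcatgGGGGAATTCCcctcctgcct
Traf3 (chr12:111166360-111166369, plus strand): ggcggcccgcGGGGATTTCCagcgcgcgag
Bcl10 (chr3:145924021-145924030, plus strand): gcgaaggcgGGGAGATCCCgctaaactga
Irak1 (chrX:74023930-74023939, minus strand): agggcggcgcGGGACGCCCCcgtgtggcgg
On the strand searched, the match shown starts 92 bases before the start of Rel and 125 bases before that of Tnfaip3. Another window of Tnfaip3 held 0 matches on that strand. Rel and Tnfaip3 are the members called between genotypes in day 7 endothelial cells. The other 7 members with a match were tested there and not called. The 9 members without promoter sequence, Malt1 and Nfkbiz among them, were not searched.

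The libraries held 2224 to 8671 cells after a quality filter, with a median of 2219 to 5330 UMIs per cell, and 50.3 to 78.7% of cells carried exactly 1 hashtag. Cells were classed by a few marker genes. AT2 cells numbered 119, 355 and 26 in the day 7 LPS β1 fl/fl, LPS β1 AT2-KO and PBS libraries, and 176 and 1240 in the day 21 β1 fl/fl and β1 AT2-KO libraries. The surfactant and lamellar body genes that were not used for the class summed to 47124 to 55096 CPM (UMIs per 1000000 UMIs) in AT2 cells of the 5 libraries, and the leukocyte list of 8 genes to 0 to 10.4 CPM, with Ptprc (CD45) at 0 in all 5. Itgb1 itself was at 258, 235 and 305 CPM in AT2 cells of the 3 day 7 β1 fl/fl mice and at 214, 150 and 193 CPM in those of the 3 day 7 β1 AT2-KO mice (log2 fold change −0.64 ± 0.18 SE, adjusted p = 0.0900). At day 21 it was at 356, 319 and 372 CPM against 141, 178 and 146 CPM (−1.29 ± 0.12 SE, adjusted p = 1.14e-07), and it was not called in endothelial cells at either time. Which part of Itgb1 is deleted is not given in the sources used here, and reads of the 5′ kit may fall outside it. Xist was found in all 3 day 7 β1 fl/fl mice and Y-linked genes in all 3 day 7 LPS β1 AT2-KO mice, so genotype and sex cannot be told apart at day 7. At day 21, cells of β1 fl/fl mouse 1 held both Xist and Y-linked UMIs, and whether this hashtag held more than 1 animal was not tested. Each group being 1 library, library and group cannot be told apart either, nor can loss of Itgb1 and carriage of the transgenes. In sums over cells, fewer cells that express a gene and less of its RNA per cell cannot be told apart.

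Malt1 rose in AT2 cells of β1 AT2-KO mice at both times, and it was the only member called at day 7. Its product is the paracaspase that, bound to BCL10, passes antigen and G protein-coupled receptor signals to IKK and cleaves A20. At day 7 the 3 β1 fl/fl mice had 72.8, 37.1 and 148 CPM and the 3 β1 AT2-KO mice 297, 301 and 255 CPM. The lowest β1 AT2-KO mouse lay above the highest β1 fl/fl mouse, and the β1 fl/fl mice were the more spread (85.8 ± 56.4 SD against 284 ± 25.3 SD, n = 3 each). The log2 fold change was 1.65 ± 0.25 SE (edgeR's quasi-likelihood test with Benjamini-Hochberg adjustment over all genes tested, adjusted p = 0.000561, higher in 3 of 3 mice). With it 1 of the 18 members with enough counts was called higher and 0 lower, where 0.767% of all 5086 genes tested were called higher and 0.845% lower.

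At day 21 Malt1 was at 23.7, 46.4 and 47.9 CPM in the β1 fl/fl mice and at 220, 204 and 232 CPM in the β1 AT2-KO mice. The groups again did not overlap (39.3 ± 13.5 SD against 218 ± 14.1 SD, n = 3 each). The log2 fold change was 2.31 ± 0.17 SE (adjusted p = 7.86e-09). Without β1 fl/fl mouse 1, whose cells held both Xist and Y-linked UMIs, it was 2.10 (adjusted p = 2.90e-08). The day 21 difference exceeded that at day 7 by 0.64 ± 0.34 SE, which was not called (adjusted p = 0.493). For this change between times 0 of 30 members were called in edgeR and in DESeq2, where 0.63% of all genes tested were called. An unadjusted p below 0.05 was found for 4 of 30 members, and the share of all genes at that threshold was not computed.

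The share of AT2 cells with a Malt1 UMI moved the same way once each cell was thinned to 2000 UMIs. It was 21.3% (95% exact binomial interval 13.4 to 31.3%, 89 cells) in β1 fl/fl and 35.2% (28.5 to 42.3%, 196 cells) in β1 AT2-KO mice at day 7, and 6.06% (2.65 to 11.6%, 132 cells) and 30.0% (26.9 to 33.3%, 816 cells) at day 21. Unthinned, these shares were 38.5%, 61.5%, 25.8% and 58.2%. The intervals cover counting error only, and those of day 7 overlap. In thinned endothelial cells of the 5 libraries 3.86 to 5.85% of cells held a Malt1 UMI.

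**Figure D1:**
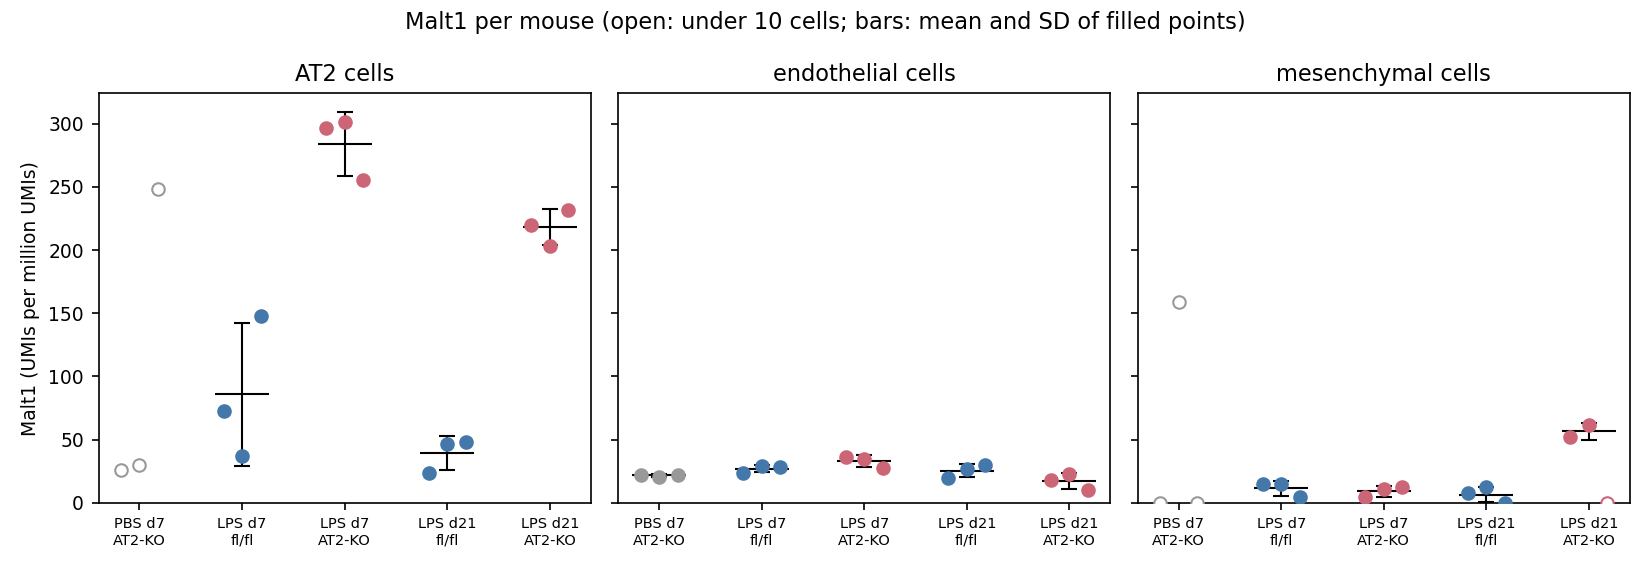
Malt1 in CPM (vertical axis) for each mouse (points) of the 5 groups (horizontal axis) in AT2, endothelial and mesenchymal cells; bars give the mean and SD of mice with at least 10 cells, and open points are mice with fewer. In AT2 cells the LPS β1 AT2-KO mice lie at 204 to 301 CPM and the β1 fl/fl mice at 23.7 to 148 CPM.

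Malt1 was not called between genotypes in endothelial cells of the same mice. It was at 27.0 ± 2.99 CPM (SD, n = 3) in day 7 β1 fl/fl mice and 33.1 ± 4.64 CPM in LPS β1 AT2-KO mice (log2 fold change 0.28, adjusted p = 0.350), and at 25.5 ± 5.11 and 16.9 ± 6.35 CPM at day 21 (−0.56, adjusted p = 0.555). The genotype difference in AT2 cells minus that in endothelial cells, which removes what is common to all cells of a mouse, was 1.39 ± 0.25 SE at day 7 (adjusted p = 1.95e-05) and 2.87 ± 0.40 SE at day 21 (adjusted p = 1.07e-08). At day 7 the call was lost with DESeq2's Wald test (1.46, adjusted p = 0.120) and after thinning (1.31, adjusted p = 0.231). In mesenchymal cells Malt1 was too low to test, with 0 to 14.9 CPM in the mice of every LPS group except day 21 β1 AT2-KO, whose 2 mice with enough cells had 51.9 and 61.5 CPM. In those cells 2 of 2 tested AT2 markers were higher in β1 AT2-KO mice, with a median log2 fold change of 2.85, and their part in the Malt1 level was not tested.

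Uninjured AT2 cells were few. The 3 PBS mice gave 4, 2 and 9 AT2 cells with 1 hashtag, under the minimum of 10, so LPS and PBS were not compared by a test in AT2 or mesenchymal cells. Summed over all 26 AT2 cells of the PBS library Malt1 stood at 136 CPM (95% exact Poisson interval 94.9 to 190, counting error only) and over the 355 AT2 cells of the LPS β1 AT2-KO library at 303 CPM (283 to 324). Nfkbia stood at 444 CPM (366 to 533) in the PBS library and 355 CPM (334 to 378) in the LPS library. Tnfaip3 rested on 1 UMI in the PBS library (3.89 CPM, 0.0986 to 21.7) and was at 30.7 CPM (24.6 to 37.9) in the LPS library. These are single libraries with no replicate check.

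Among the receptors, Tnfrsf1a, the main receptor for TNF, was the second member called in AT2 cells at day 21. It was at 55.4, 49.3 and 63.0 CPM in the β1 fl/fl mice and at 105, 91.0 and 104 CPM in the β1 AT2-KO mice, groups that did not overlap. The log2 fold change was 0.70 ± 0.17 SE (adjusted p = 0.0139, higher in 3 of 3 mice). Leaving out any 1 of the 3 β1 fl/fl mice, or β1 AT2-KO mouse 3, ended the call (0.68, 0.64, 0.81 and 0.68, adjusted p = 0.0523, 0.0525, 0.0503 and 0.0555). In all, the call was lost under 6 of 16 alternatives, with adjusted p up to 0.174. At day 7 the values overlapped, with 64.9, 37.1 and 71.4 CPM in β1 fl/fl and 86.0, 69.0 and 56.1 CPM in β1 AT2-KO mice (0.09 ± 0.26 SE, adjusted p = 0.942). The difference between AT2 and endothelial cells at day 21 was 0.73 ± 0.22 SE, with an adjusted p of 0.0488 that passed 0.05 under 2 of 17 alternatives.

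Tlr4, the receptor for LPS itself, was low in AT2 cells. At day 7 it was at 15.7, 18.5 and 4.76 CPM in β1 fl/fl and 20.8, 24.99 and 11.6 CPM in β1 AT2-KO mice, and it did not pass the filter on low counts. At day 21 it was at 13.2, 5.80 and 35.6 CPM against 17.7, 15.5 and 13.3 CPM (log2 fold change −0.64 ± 0.36 SE, adjusted p = 0.415). The β1 fl/fl values spanned those of the β1 AT2-KO mice. Ltbr, the lymphotoxin β receptor of the noncanonical arm, differed by 0.17 at day 7 and 0.01 at day 21 and was not called.

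With Malt1 and Tnfrsf1a, 2 of the 35 members tested at day 21 were called higher in β1 AT2-KO AT2 cells and 0 lower, where 1.46% of all 8807 genes tested were called higher and 2.28% lower. The members not tested were Nfkbie and Map3k8. The median log2 fold change of the members was 0.24 at day 7 and 0.19 at day 21, beside 0.00 over all genes at both times, and it was positive for 13 of 18 and 26 of 35 members. Among all genes tested 50.4% and 50.3% were positive.

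**Figure D2:**
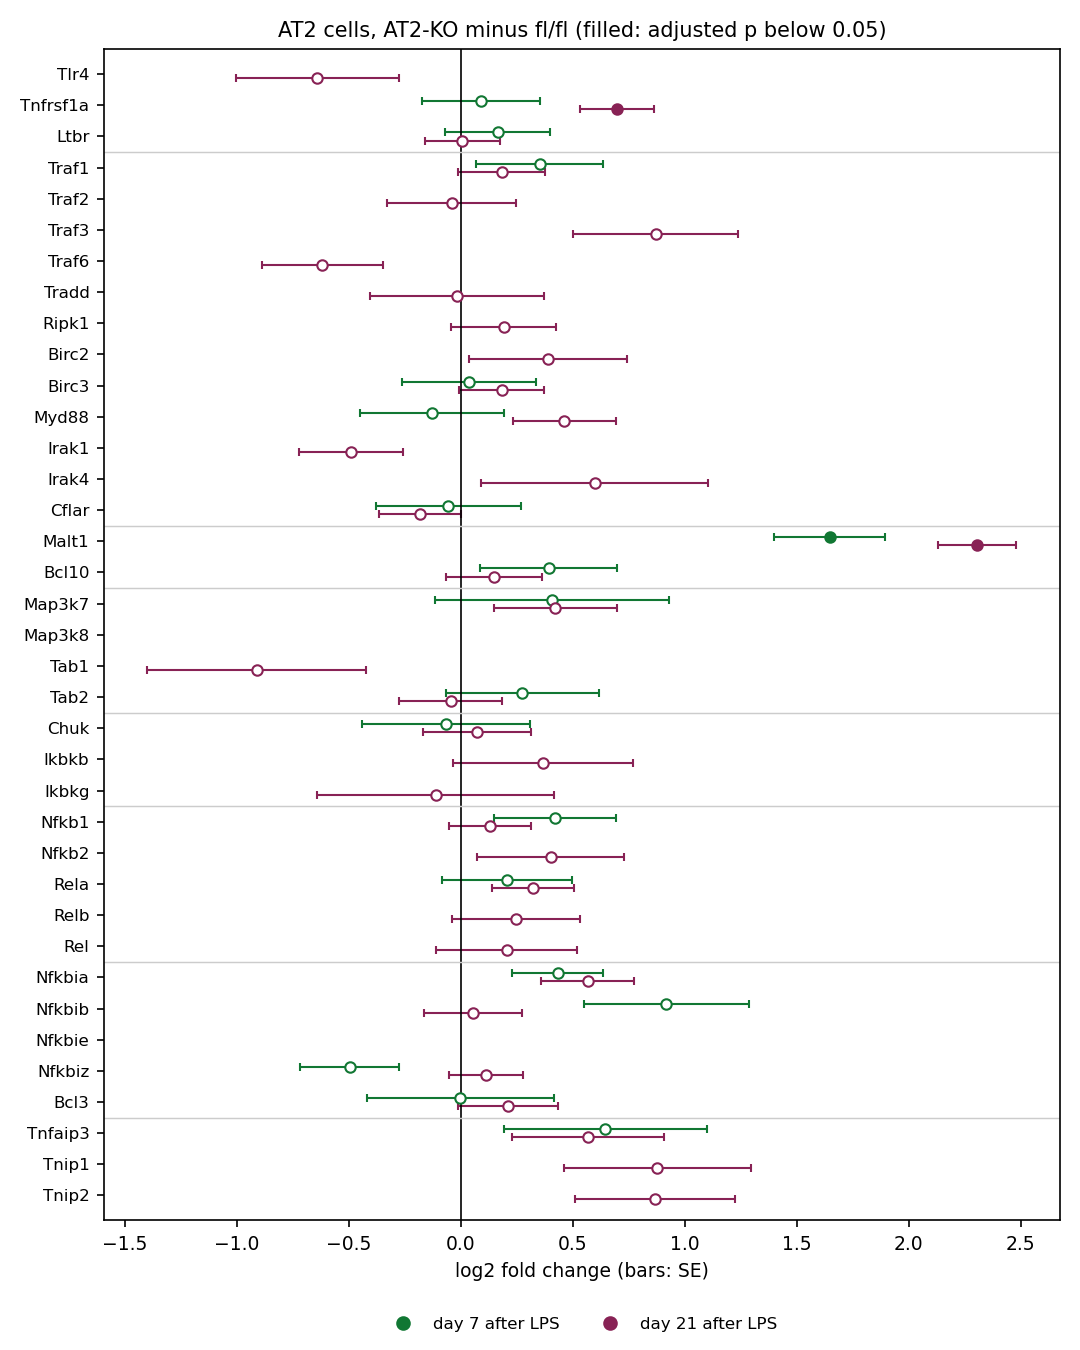
Log2 fold change (horizontal axis, bars SE) of each tested member (vertical axis, grouped by role) in AT2 cells of LPS β1 AT2-KO against β1 fl/fl mice at day 7 and day 21; filled points have an adjusted p below 0.05. Malt1 (1.65 and 2.31) stands far from the other members, and Tnfrsf1a at day 21 (0.70) is the other filled point.

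None of the adaptors was called in AT2 cells at either time. Bcl10, the partner of MALT1, was measured at both times and differed by 0.39 at day 7 and 0.15 at day 21. At day 7 only Traf1, Myd88, Birc3 and Cflar of the 12 receptor-proximal members passed the filter. At day 21 all 12 did, and Traf3, a brake of the noncanonical arm (0.87 ± 0.37 SE), and Irak1, a kinase of the TLR pathway encoded on the X chromosome (−0.49 ± 0.23 SE), had unadjusted p values of 0.0277 and 0.0457 but adjusted p values of 0.235 and 0.301. Myd88, the adaptor of most TLRs, had log2 fold changes of −0.13 and 0.46 at the 2 times.

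None of the kinases and subunits that carry the signal was called in AT2 cells. Map3k7, which encodes TAK1, differed by 0.41 at day 7 and 0.42 at day 21, and its partner Tab2 by 0.27 and −0.04. Of the IKK genes Chuk, which encodes IKKα, was tested at both times (−0.07 and 0.07), while Ikbkb and Ikbkg passed the filter at day 21 only (0.37 and −0.11). Tab1, another partner of TAK1, was also tested at day 21 only (−0.91).

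Nfkb1, which encodes p105 and p50, was at 39.4, 37.1 and 57.1 CPM in AT2 cells of day 7 β1 fl/fl mice and at 71.2, 57.1 and 61.9 CPM in β1 AT2-KO mice (0.42 ± 0.27 SE, adjusted p = 0.585). The highest β1 fl/fl mouse and the lowest β1 AT2-KO mouse were at the same level. At day 21 it was at 81.8, 69.6 and 53.4 CPM against 71.2, 71.5 and 88.3 CPM (0.13 ± 0.18 SE, adjusted p = 0.796). Rela, which encodes the p65 activator, was at 37.4, 43.2 and 57.1 CPM against 71.2, 51.2 and 44.5 CPM at day 7 (0.21 ± 0.29 SE, adjusted p = 0.860). At day 21 Rela was at 39.6, 52.2 and 42.4 CPM in β1 fl/fl and at 59.7, 59.2 and 59.5 CPM in β1 AT2-KO mice (0.32 ± 0.18 SE, adjusted p = 0.420). These day 21 groups did not overlap, yet the difference did not pass the test. Rela was 1 of 9 members with every β1 AT2-KO mouse above every β1 fl/fl mouse in these cells, and 1 member had every one below. The share of all genes without overlap was not counted. Nfkb2, Relb and Rel, the other subunits, were tested in AT2 cells at day 21 only, with log2 fold changes of 0.40, 0.24 and 0.20, none of them called.

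Of the inhibitors, Nfkbia and Nfkbiz differed between AT2 and endothelial cells in how genotype moved them. Nfkbia in AT2 cells was at 137, 429 and 248 CPM in day 21 β1 fl/fl mice and at 523, 387 and 366 CPM in β1 AT2-KO mice, which overlapped (0.57 ± 0.21 SE, adjusted p = 0.150). In endothelial cells the difference was −0.22 ± 0.15 SE, so that AT2 minus endothelial was 0.78 ± 0.20 SE (adjusted p = 0.0103). Without β1 fl/fl mouse 1 this value was 0.35 (adjusted p = 0.454), and without β1 AT2-KO mouse 1 it was 0.43 (adjusted p = 0.406). At day 7 Nfkbia was at 238, 161 and 276 CPM against 294, 413 and 267 CPM (0.43 ± 0.20 SE, adjusted p = 0.388).

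Nfkbiz encodes IκBζ, a nuclear member of the family that helps p50 switch on secondary response genes. In AT2 cells at day 7 it was at 138, 136 and 152 CPM in β1 fl/fl and 80.1, 136 and 88.9 CPM in β1 AT2-KO mice, with β1 AT2-KO mouse 2 level with the lowest β1 fl/fl mouse (−0.50 ± 0.22 SE, adjusted p = 0.349). In endothelial cells it went from 44.6 ± 6.66 to 64.8 ± 7.29 CPM (SD, n = 3 each, 0.52 ± 0.13 SE, adjusted p = 0.0736). Neither difference was called, and the difference between them was (−0.98 ± 0.25 SE, adjusted p = 0.0107). After thinning to 2000 UMIs it was −0.11 (adjusted p = 1). It was also lost with DESeq2 (−1.05), with a stricter Sftpc gate (−0.84), and without β1 fl/fl mouse 2 (−0.93) or 3 (−0.91) or β1 AT2-KO mouse 1 (−0.89) or 3 (−0.89). Nfkbib, which encodes IκBβ, had 0.92 in AT2 cells at day 7 (adjusted p = 0.282) and 0.05 at day 21, and Bcl3, another nuclear member, had 0.00 and 0.21.

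In these AT2 minus endothelial differences 1 of 37 members (Malt1) was called higher and 1 (Nfkbiz) lower at day 7, where 0.491% of all genes tested were called higher and 0.758% lower. At day 21, 3 of 34 (Malt1, Nfkbia, Tnfrsf1a) were called higher and 0 lower, where 0.883% were called higher and 1.12% lower. AT2 marker RNA was uneven in the endothelial cells on which these differences rest. The AT2 list summed to 752 CPM in endothelial cells of the day 7 β1 fl/fl library and 1067 CPM in those of the LPS β1 AT2-KO library, and at day 21 to 613 and 2891 CPM, with 6 of 6 tested AT2 markers higher in β1 AT2-KO endothelial cells. Its part in the differences was not tested.

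None of the 3 feedback genes was called in AT2 cells. Tnfaip3, which encodes the deubiquitinase A20, was at 13.8, 12.4 and 28.6 CPM in day 7 β1 fl/fl mice and 11.9, 32.1 and 34.8 CPM in β1 AT2-KO mice (0.65 ± 0.45 SE, adjusted p = 0.620). At day 21 it was at 7.91, 23.2 and 15.1 CPM against 29.6, 19.0 and 24.0 CPM (0.57 ± 0.34 SE, adjusted p = 0.441). The groups overlapped at both times. Tnip1 and Tnip2, which encode the A20 partners ABIN1 and ABIN2, had 0.88 ± 0.42 SE and 0.87 ± 0.36 SE at day 21 (adjusted p = 0.303 and 0.217) and were too low to test at day 7.

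**Figure D3:**
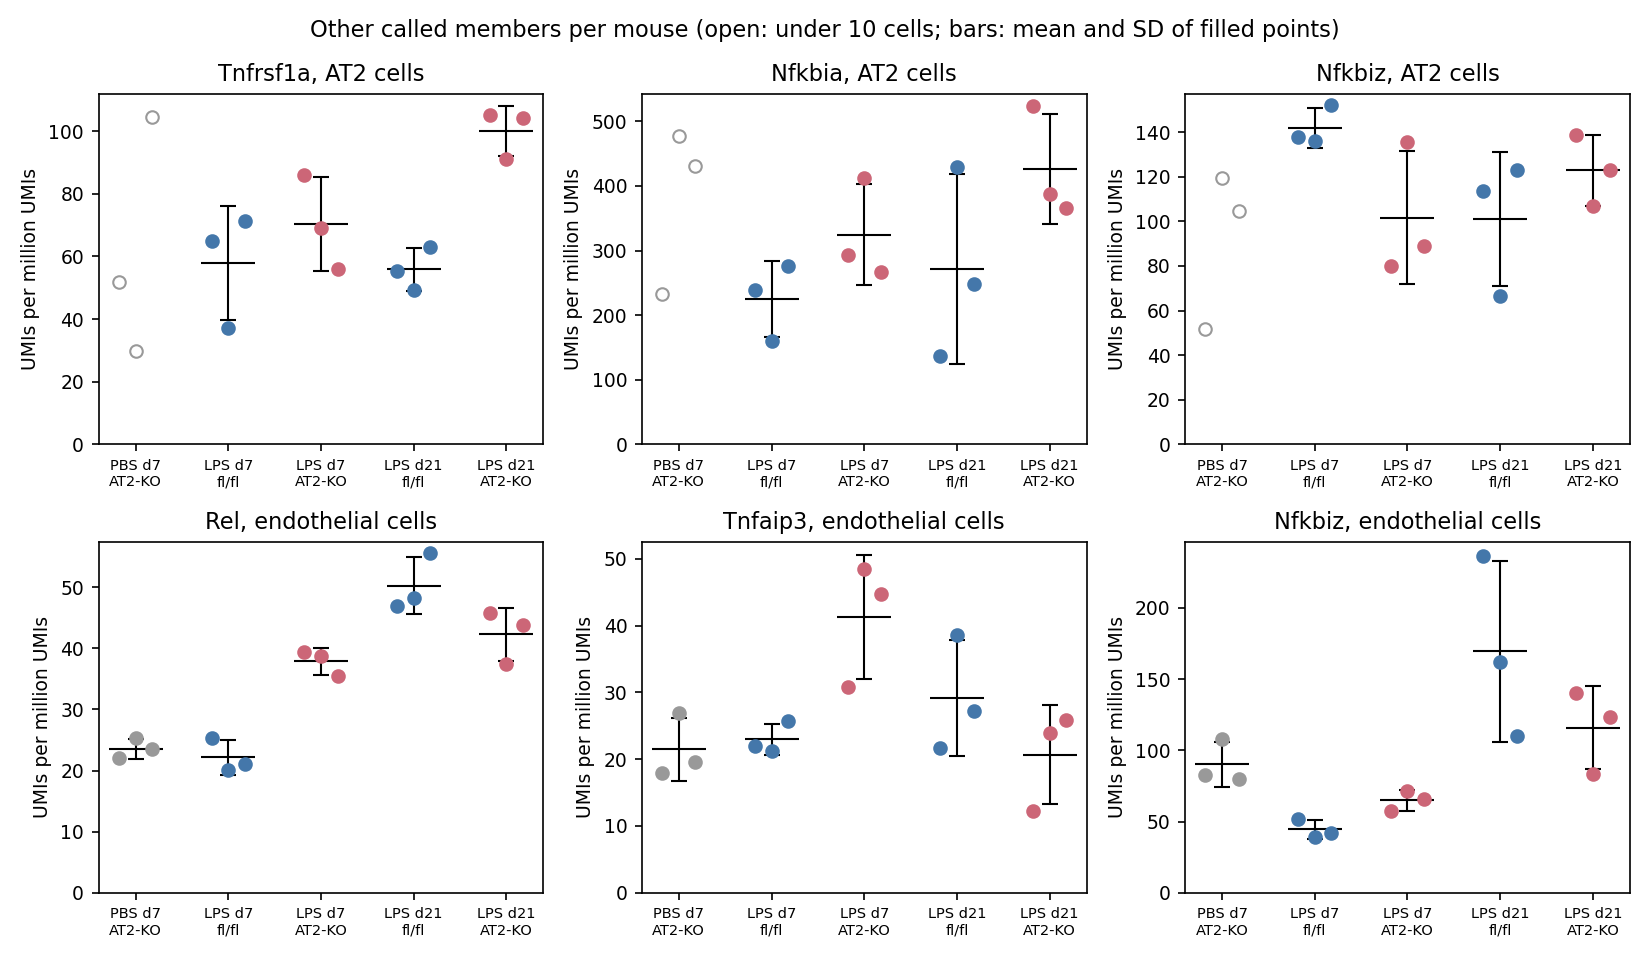
CPM (vertical axis) of 3 members in AT2 cells (Tnfrsf1a, Nfkbia, Nfkbiz) and 3 in endothelial cells (Rel, Tnfaip3, Nfkbiz) for each mouse (points) of the 5 groups; bars give mean and SD of mice with at least 10 cells, and open points are mice with fewer. Rel and Tnfaip3 in endothelial cells are higher in all 3 LPS β1 AT2-KO mice at day 7 (35.4 to 39.4 and 30.8 to 48.4 CPM) than in the β1 fl/fl and PBS mice (20.0 to 25.4 and 17.9 to 26.9 CPM).

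Genes outside the 37 were read from 4 lists. At day 7 none of the 9 tested NF-κB target genes, 3 other receptors, 2 other adaptors and kinases and 14 other ubiquitin and feedback genes was called in AT2 cells. At day 21, 5 of 12 tested target genes were called higher and 0 lower, with a median log2 fold change of 0.36. Among all 8807 genes tested, 1.46% were called higher and 2.28% lower. The 5 target genes were Cxcl10, an interferon-inducible chemokine (3.40 ± 0.59 SE), Lcn2, a siderophore-binding protein of the acute phase (0.79 ± 0.13 SE), Gadd45b (0.75 ± 0.20 SE), Ier3 (0.75 ± 0.17 SE) and Irf1 (0.70 ± 0.19 SE), named after their values were seen. In day 21 endothelial cells 1 of 8 tested target genes was called higher (Lcn2, 2.56 ± 0.19 SE) and 2 lower (Irf1 and Ier3). There 1.78% of all genes tested were called in either direction. As AT2 minus endothelial, 4 of 15 were called higher and 1 lower (Lcn2, −1.85 ± 0.25 SE), where 0.883% and 1.12% of all genes were. Between the classes, Lcn2 was 6.26 ± 0.29 SE higher on the log2 scale in AT2 than in endothelial cells. The AT2 list summed to 613 CPM in day 21 β1 fl/fl endothelial cells and 2891 CPM in β1 AT2-KO ones. The part of this AT2 RNA in the Lcn2 values was not tested. In day 21 AT2 cells Tnfrsf12a, the receptor for TWEAK, was called among 5 other receptors (0.95 ± 0.19 SE), and 0 of 9 adaptors and kinases and 0 of 16 ubiquitin and feedback genes were. Markers of the Krt8-positive intermediate state moved in the same AT2 cells, with 2 of 6 called higher at day 7 (median 0.74) and 3 of 6 at day 21 (median 0.41), as did 1 of 3 tested AT1 markers at day 7 (median 0.86) and 0 of 3 at day 21 (median 0.08). The AT2 list had medians of −0.19 and −0.19, with 1 of 7 called higher at each time. Of the club cell list 0 of 2 tested markers were called at day 7 (median −1.65) and 0 of 3 at day 21 (median 0.82). Its sum in AT2 cells was 2331 CPM in the day 7 β1 fl/fl library and 832 CPM in the LPS β1 AT2-KO library. At day 21 these sums were 157 and 347 CPM. The part of these states and of club cell RNA in the values of the members was not tested.

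Endothelial cells made up most of the day 7 libraries, with 6508, 4777 and 7976 cells in the β1 fl/fl, LPS β1 AT2-KO and PBS libraries, and all 37 members were tested between genotypes there. Rel and Tnfaip3 rose in LPS β1 AT2-KO mice, 2 of 37 members called higher and 0 lower, where 1.42% of all 11378 genes tested were called higher and 0.694% lower. Rel, which encodes the c-Rel subunit, was at 25.4, 20.0 and 21.1 CPM in β1 fl/fl mice and at 39.4, 38.8 and 35.4 CPM in LPS β1 AT2-KO mice (0.76 ± 0.12 SE, adjusted p = 0.0152). Tnfaip3 was at 22.0, 21.2 and 25.7 CPM against 30.8, 48.4 and 44.6 CPM (0.83 ± 0.17 SE, adjusted p = 0.0349). Every β1 AT2-KO mouse lay above every β1 fl/fl mouse in both, which were picked by the test on the same values. Both calls were sensitive to single mice. Leaving out β1 fl/fl mouse 2 or 3 or β1 AT2-KO mouse 2 ended the calls of both (adjusted p = 0.0630 to 0.102 for Rel and 0.0774 to 0.190 for Tnfaip3), as did leaving out β1 AT2-KO mouse 1 for Rel (adjusted p = 0.0505) and β1 fl/fl mouse 1 for Tnfaip3 (adjusted p = 0.121). The member median was 0.03, beside 0.01 over all genes. In these cells 1 of 7 AT2 markers (median 0.98) and 1 of 7 mesenchymal markers (median 0.82) were called higher. Of the Krt8-positive intermediate markers 1 of 5 was called higher (median 0.57). Of the ciliated cell markers 2 of 3 were called lower (median −2.05), as was 1 of 3 club cell markers (median −0.18). No leukocyte marker passed the filter. The part of such RNA in the values of Rel and Tnfaip3 was not tested.

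The effect of LPS could be tested in endothelial cells of β1 AT2-KO mice, against PBS at day 7. The LPS mice in this comparison are the β1 AT2-KO mice of the genotype comparison, so the 2 sets of values are not independent. In all, 3 members rose (Malt1, Rel, Tnfaip3) and 3 fell (Rela, Nfkbiz, Ltbr) of 36 tested, where 11.4% of all 11217 genes tested were called higher and 10.8% lower. Traf1 was not tested. The share of members called was thus near that of all genes, and the member median was −0.09 beside 0.00.

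Rel stood at 22.0, 25.3 and 23.4 CPM in PBS mice and rose by 0.59 ± 0.11 SE (adjusted p = 0.00583). Tnfaip3 stood at 17.9, 26.9 and 19.5 CPM in PBS mice and rose by 0.85 ± 0.20 SE (adjusted p = 0.0179), a call lost without PBS mouse 3 or LPS mouse 2 or 3 (adjusted p = 0.0675, 0.0654 and 0.0523). For both, the uninjured β1 AT2-KO mice and the LPS β1 fl/fl mice lay in the same range, below all 3 LPS β1 AT2-KO mice. Malt1 went from 22.1, 20.5 and 22.1 CPM to 36.4, 35.0 and 27.8 CPM (0.52 ± 0.13 SE, adjusted p = 0.0218), without overlap, and the call was lost without LPS mouse 1 or 2 or PBS mouse 2 or 3 (adjusted p = 0.0652 to 0.0798).

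Rela fell from 165, 168 and 177 CPM to 130, 136 and 127 CPM (−0.47 ± 0.07 SE, adjusted p = 0.00252). Nfkbiz fell from 82.6, 108 and 79.7 CPM to 57.1, 71.5 and 65.9 CPM (−0.57 ± 0.14 SE, adjusted p = 0.0189), a call lost without LPS mouse 1 (adjusted p = 0.0657). Ltbr fell from 168, 154 and 149 CPM to 146, 128 and 132 CPM (−0.31 ± 0.09 SE, adjusted p = 0.0293), a call lost with DESeq2 and without LPS mouse 2 or 3 or PBS mouse 1 or 2 (adjusted p = 0.0534 to 0.0900). None of these 3 overlapped between groups, the gap being narrowest for Ltbr. They were picked by the test on the same values, and the share of all genes without overlap was not counted. Nfkbia had −0.51 ± 0.17 SE and did not pass the test (adjusted p = 0.0613). Of the 4 lists, 5 of 16 NF-κB targets were called higher and 4 lower, 1 of 9 other receptors higher, 1 of 14 adaptors and kinases higher and 2 lower, and 0 of 16 ubiquitin and feedback genes higher and 5 lower. The AT2 list in these endothelial cells rose with LPS as well, from 247 to 1067 CPM in the sums of the libraries, with 6 of 7 markers called higher (median 3.05) beside 5 of 7 mesenchymal markers (median 1.95), 4 of 4 tested Krt8-positive intermediate markers (median 2.96) and 2 of 3 club cell markers (median 2.41). The 3 proliferation markers Mki67, Top2a and Cdk1 were called higher too, their sum being 10.3, 0.198 and 0.195 CPM in PBS and 143, 169 and 485 CPM in LPS mice. In the β1 fl/fl mice this sum was 113, 130 and 176 CPM, and 0 of the 3 markers were called between genotypes. Their part in the values of Malt1 and the other members was not tested.

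**Figure D4:**
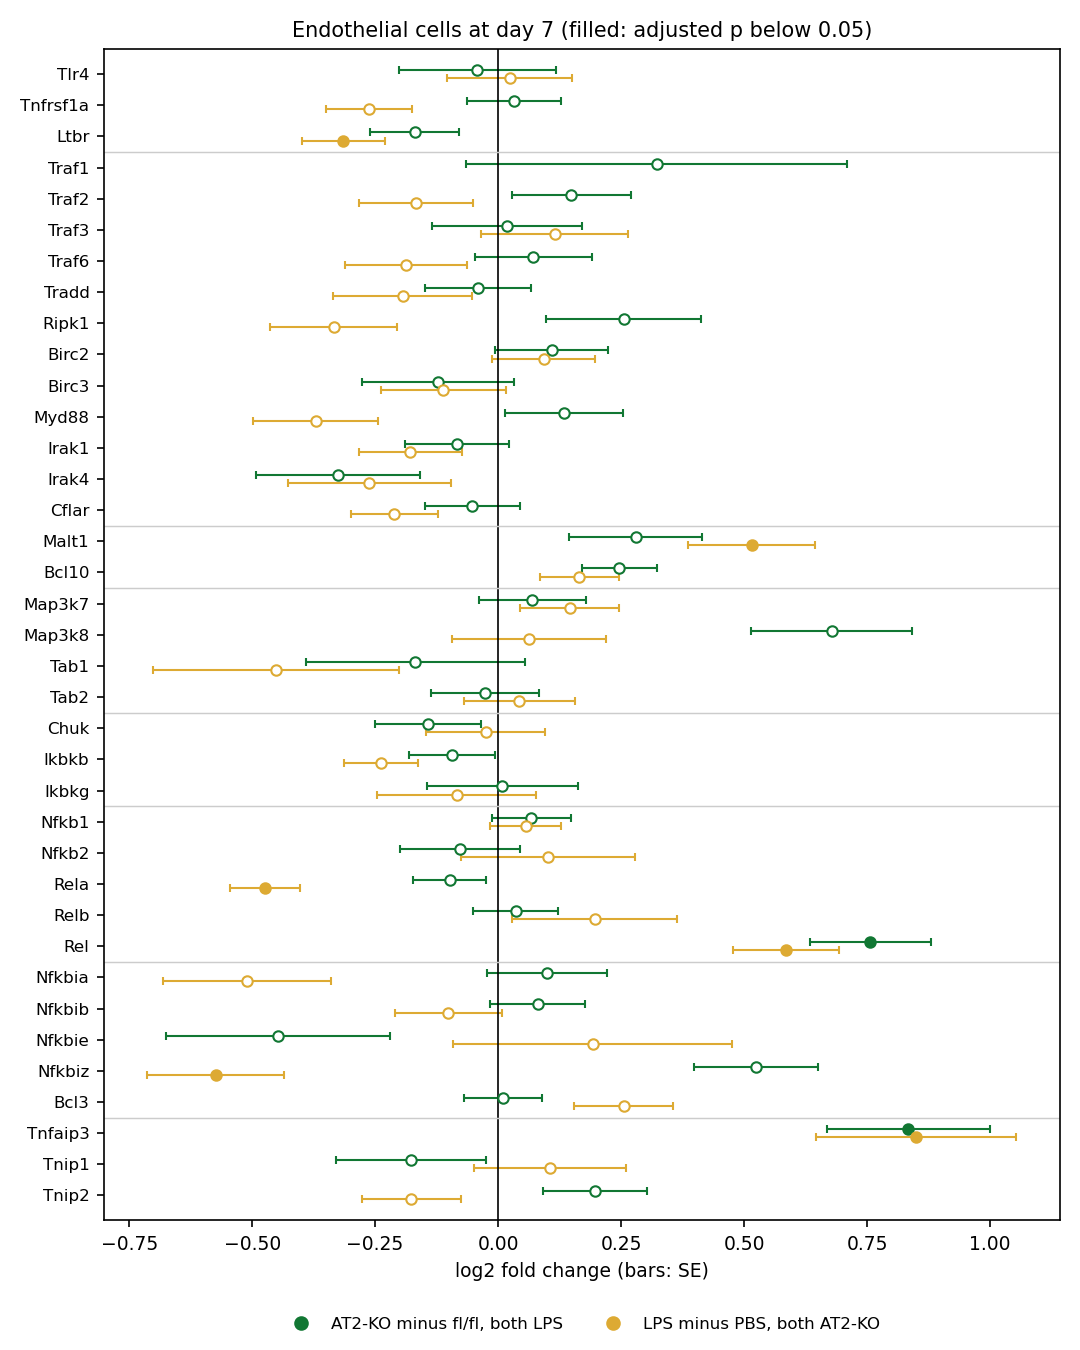
Log2 fold change (horizontal axis, bars SE) of each tested member (vertical axis, grouped by role) in day 7 endothelial cells, for LPS β1 AT2-KO against LPS β1 fl/fl mice and for LPS against PBS in β1 AT2-KO mice; filled points have an adjusted p below 0.05. Rel and Tnfaip3 are filled and positive in both contrasts, which share the LPS β1 AT2-KO mice, and Rela, Nfkbiz and Ltbr are filled and negative for LPS against PBS.

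At day 21 in endothelial cells, and at both times in mesenchymal cells, no member passed the test between genotypes. In day 21 endothelial cells 0 of 33 members were called in edgeR, where 1.78% of all genes tested were called in either direction. Of these members 6 had an unadjusted p below 0.05. Rel was at 46.9, 48.3 and 55.6 CPM in β1 fl/fl and 45.7, 37.4 and 43.8 CPM in β1 AT2-KO mice, and Tnfaip3 at 21.6, 38.6 and 27.1 CPM against 12.2, 23.9 and 25.9 CPM. Neither was higher in β1 AT2-KO mice at this time. In mesenchymal cells 0 of 26 members were called at day 7, where 0.102% of all genes tested were called, and 3 had an unadjusted p below 0.05. At day 21 these cells came from 3 β1 fl/fl and 2 β1 AT2-KO mice with enough cells, and 0 of the 6 members tested were called, where 0.399% of all genes tested were called, with 0 at an unadjusted p below 0.05. DESeq2 called 0 members in these 3 comparisons too. The share of all genes at an unadjusted p below 0.05 was not computed, so the counts of members at that threshold have no background beside them.

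The levels of the members were compared between the 3 cell classes within the LPS mice, and the shares called were near those of all genes for AT2 against endothelial and for endothelial against mesenchymal cells. In all, 9 of 34 tested members were higher in AT2 than in endothelial cells and 17 were lower, where 34.3% of all genes tested were higher and 39.2% lower. AT2 cells held more Traf1, an adaptor of TNF receptor signalling (log2 difference 4.64 ± 0.21 SE), which had means of 40.2 to 64.8 CPM in the AT2 groups and 0.715 to 7.67 CPM in the endothelial groups. Malt1 followed (3.13 ± 0.23 SE), then Birc3, which encodes the ligase cIAP2 (1.08), Nfkbiz (1.02), Myd88 (0.58), Traf3 (0.56), Tab2 (0.42), Irak1 (0.40) and Nfkbib (0.32).

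The members lower in AT2 than in endothelial cells were led by a kinase and a receptor. Map3k8, which encodes TPL2 (−2.85 ± 0.20 SE), had means of 46.9 to 75.8 CPM in endothelial and 3.73 to 6.74 CPM in AT2 groups. Tnfrsf1a (−1.88 ± 0.10 SE), Ikbkb, the catalytic kinase IKKβ (−1.65 ± 0.15 SE), Ripk1, the TNF receptor kinase (−1.07 ± 0.12 SE), and Rela (−0.85 ± 0.09 SE) were also lower in AT2 cells, as were Tnip2, Bcl10, Relb, Cflar, Nfkb1, Irak4, Rel, Nfkbia, Bcl3, Tnip1, Birc2 and Ltbr, at −0.65 to −0.27. By role, 4 of 5 NF-κB subunits were lower in AT2 cells and 0 higher, while 5 of 12 receptor-proximal members were higher and 4 lower. Chuk, Traf2, Traf6 and Tradd, the TNFR1 adaptor, were among the members that did not pass the test, and Nfkbie, Ikbkg and Tab1 could not be tested.

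Against mesenchymal cells, AT2 cells had 2 of 20 tested members higher (Malt1, 4.13 ± 0.30 SE, and Traf1, 3.33 ± 0.31 SE) and 12 lower, where 28.6% of all genes tested were higher and 32.3% lower. Those lower included Tnfrsf1a (−1.59 ± 0.14 SE), Tnfaip3 (−1.37 ± 0.21 SE) and Relb (−1.22 ± 0.20 SE). Endothelial against mesenchymal cells, 8 of 32 members were higher and 10 lower, where 31.2% and 25.4% of all genes tested were. Mesenchymal cells held more Nfkbiz (−1.97 ± 0.20 SE), Tnfaip3 (−1.38 ± 0.16 SE) and Birc3 (−1.28 ± 0.16 SE), and endothelial cells more Malt1 (1.09 ± 0.31 SE), Cflar, the caspase-8 inhibitor cFLIP (1.01 ± 0.13 SE), Ikbkb (0.89 ± 0.15 SE) and Map3k8 (0.87 ± 0.21 SE). In these fits over all LPS mice the Malt1 level was highest in AT2, then endothelial, then mesenchymal cells. In day 21 β1 AT2-KO mice the order of the last pair was the other way, with 16.9 ± 6.35 CPM (SD, n = 3) in endothelial cells and 51.9 and 61.5 CPM, from 3 and 6 UMIs, in the mesenchymal cells of the mice tested.

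**Figure D5:**
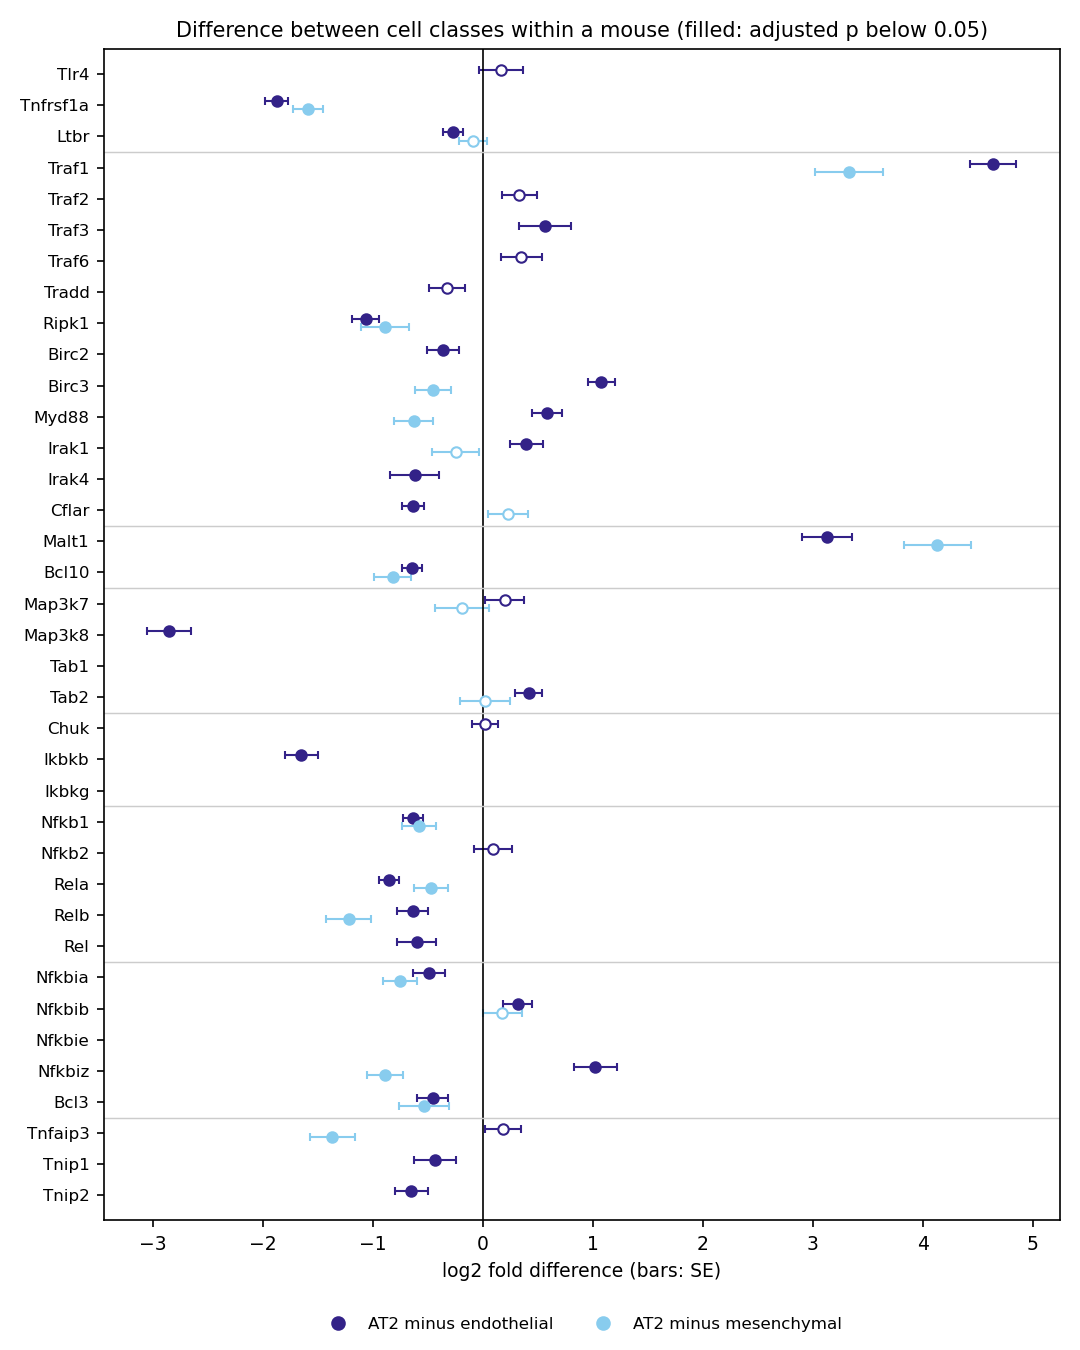
Log2 difference (horizontal axis, bars SE) of each tested member (vertical axis, grouped by role) between AT2 and endothelial cells and between AT2 and mesenchymal cells of the same LPS mice; filled points have an adjusted p below 0.05. Malt1 (3.13 and 4.13) and Traf1 (4.64 and 3.33) lie far to the right, and Map3k8 (−2.85) and Tnfrsf1a (−1.88 and −1.59) to the left.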

How the data were processed

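The deposited files hold UMI counts of genes and of hashtag antibodies for each barcode, made by the authors with Cell Ranger 3.1 on mm10 (the submitters' notes also name Seurat 4.1.0); no normalization is applied in these counts, and the free RNA correction, quality filter and doublet removal of the study are not part of them. Of the genes, 99.865% matched GENCODE M21 by identifier.

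A cell entered if it had 700 genes or more and mitochondrial UMIs between 0.1 and 15%. AT2 cells had Sftpc at 5% of UMIs or more and at least 1 Epcam UMI, endothelial cells at least 2 UMIs of Cdh5 and Pecam1, and mesenchymal cells at least 2 of Col1a2, each with 0 UMIs of the other classes' markers. No doublet caller was run; cells with 1 hashtag only (4 times background, 10 counts or more) gave the values per mouse, and the top 5% of cells by UMIs were left out as an alternative. Between any pair of libraries 15 to 102 barcodes were shared.

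UMIs were summed per mouse and class (10 cells or more per mouse, 2 mice or more per group) and tested with edgeR 4.0.16 in R 4.3.3 (quasi-likelihood test, TMM, filterByExpr), p-values adjusted by Benjamini-Hochberg over all genes tested and called below 0.05; contrasts between classes had the mouse as a block. SE is the log2 fold change divided by the root of F. DESeq2 1.42.0, other scalings, filters, gates, hashtag limits, thinning to 2000 UMIs and leaving out each mouse were alternatives. Leaving out cells with a leukocyte marker UMI, and the comparison of day 21 with day 7, were added after seeing the data. The members and lists were chosen with earlier results of these data known. The gene lists were NF-κB targets, other receptors, other adaptors and kinases, and other ubiquitin and feedback genes. The marker lists were AT1, AT2, endothelial, mesenchymal, leukocyte, club, ciliated, proliferation and Krt8-positive intermediate markers. Values per mouse are given for members called in AT2 cells or in the AT2 minus endothelial difference, and for Nfkbia, Tnfaip3, Nfkb1, Rela, Malt1 and Tlr4. Those of Rel and Ltbr, and the endothelial values of other called members, were added after their calls were seen; the remaining members were named by role or call.

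In counts simulated from the real means, changes of 2 on the log2 scale were recovered for 76.3% of genes at day 7 and 78.4% at day 21 in AT2 cells, and for 53.6% in the day 7 AT2 minus endothelial difference; changes of 1 were recovered for 16.5%, 29.6% and 3.88%. The recovery required of the last of these was lowered after its result was seen, so these shares are limits of power. All genes were simulated with a single fixed dispersion that was not estimated from these data, so power in the real counts may differ. Intervals cover counting error only.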

Additional observations from a re-analysis of the deposited data

Results flagged for a closer look

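In 5 results the genotype difference itself differed between AT2 and endothelial cells of the same mice by edgeR's test of that difference. At day 7 these were Malt1 (1.39) and Nfkbiz (−0.98), and at day 21 Malt1 (2.87), Nfkbia (0.78) and Tnfrsf1a (0.73), all on the log2 scale as AT2 minus endothelial. Malt1 at day 21 passed the test under all 17 alternatives and at day 7 under 15 of 17. Nfkbia passed under 12 of 17, Nfkbiz under 10 of 17 and Tnfrsf1a under 2 of 17.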

How the results depend on the processing

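Malt1 in AT2 cells was called under all 16 alternatives at day 7 (1.40 to 2.05) and at day 21 (2.10 to 2.99). Over the 28 called results with values under alternatives, the direction was kept in 291 of 291 values and the call in 226. Of the counts of called members, 140 of 171 stayed within 1.5 times. Those that did not were as follows. With hashtags at 8 times background, 1 member was called in AT2 cells at day 21 and 1 in the day 21 AT2 minus endothelial difference. DESeq2's Wald test called 0 in that difference at day 7 and 1 at day 21, and Sftpc at 10% gave 1 at each. Thinning gave 1 in day 7 endothelial cells, 0 in the day 7 AT2 minus endothelial difference, and 10, 3 and 7 for AT2 against endothelial, AT2 against mesenchymal and endothelial against mesenchymal cells, while day 21 mice alone gave 5 for each of the last 2. A gate of 3 marker UMIs gave 1 in day 7 endothelial cells. Without a filter on low counts, 10 were called for LPS against PBS, 1 in day 21 endothelial and 1 in day 7 mesenchymal cells. Leaving out 1 mouse gave 1 to 2 in AT2 cells at day 21, 0 to 3 in day 7 endothelial cells between genotypes, 4 to 6 for LPS against PBS, 0 to 1 in day 21 endothelial cells, and 1 to 2 and 1 to 3 in the day 7 and day 21 AT2 minus endothelial differences. In endothelial against mesenchymal cells, thinning turned the sign of the uncalled Nfkbia (−0.12 to 0.014) and Nfkb1 (0.14 to −0.16). The cause of these changes was not tested. No paired analysis between groups was possible because each mouse belongs to 1 group and its number only follows the order of the hashtags. Cell number limits what AT2 cells show, since 19 of 37 members could not be tested there at day 7, with 17 to 101 cells per mouse, and the PBS mice had too few AT2 cells for any test.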
